A study of Mus musculus with 4 samples.

Results

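The genes described here build the junctions between epithelial cells: the cadherins and catenins of adherens junctions, the nectins with afadin, the desmosome, the tight junction and the connexins of gap junctions. They are 37 genes taken by name from the platform's probe annotation, out of 19935 genes that a row of the array table named alone. Each of the 37 had exactly 1 row. The set held 6 cadherins and catenins, 4 genes of the group of nectins, afadin and Ptprf, 11 desmosome genes, 12 tight junction genes and 4 gap junction genes.

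The study sorted bulge stem cells, the resting stem cells of the hair follicle, by their surface CD34 and alpha6 integrin. The animals were male CD-1 mice at postnatal day 56, when the follicles were in the second telogen, the rest phase of the hair cycle. Mice of 1 group were injected in the peritoneum with CSA at 100 mg/kg for 3 days before collection, and mice of the other group were given vehicle the same way. CSA is not spelled out in the labels; in the study of calcineurin it is the usual abbreviation of cyclosporine A, an inhibitor of that phosphatase. Each group had 2 biological replicates, each measured on 1 one-colour array, with no statement in the labels of whether animals were pooled.

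Every value is a distance from a baseline that the authors set for each row, on a log scale taken as log2. Values of different genes therefore do not compare as levels, and only differences between arrays within a gene are read. The array medians lay between -0.02 and 0.06, with vehicle replicate 1 the highest. CSA replicate 2 and vehicle replicate 2 correlated across rows at a Pearson r of 0.516, and the other pairs of arrays at 0.02 to 0.168. Cd34, the gene of the marker used for the sort, stood above its baseline on all 4 arrays, at 1.75 and 3.60 with CSA and 4.05 and 4.25 with vehicle. Itga6, the gene of alpha6 integrin, read -0.70 and -0.53 with CSA and -0.9995 and 0.08 with vehicle. Such distances from a baseline do not show how strongly either gene was expressed. RNA of the sorted population was measured as a whole, so fewer cells of a type and less RNA per cell cannot be told apart.

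Adherens junctions and desmosomes join neighbouring cells through cadherins that bind across the gap between them. Classical cadherins connect through catenins to actin, and desmogleins and desmocollins connect through plakoglobin, plakophilins and desmoplakin to keratin filaments. Tight junctions, made of claudins, occludin and their scaffolds, seal the uppermost living layer of the epidermis, and gap junctions let small molecules pass between cells through connexin channels. In the bulge such contacts hold the stem cells to one another, to the inner layer of the bulge and to the resting hair.

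Most junction genes stood lower in CSA than in vehicle, and none passed the test over all genes. The difference, CSA minus vehicle, was below 0 for 28 of 37 genes (75.7%), against 58.9% of all genes, and its median was -0.22, against -0.04 over all genes. For 6 of the 37 both CSA arrays lay below both vehicle arrays with the means at least 1.5-fold apart (16.2%), a share of 1.99% among all genes. These were Cdh1, Cdh13, Ptprf, Dsg3, Dsc3 and Gja1, which all encode surface proteins. So do many other genes of the set, among them Cdh3, Dsc2 and Nectin1, whose groups overlapped. Cdh1 belongs to adherens junctions, Dsg3 and Dsc3 to desmosomes and Gja1 to gap junctions, while Cdh13 lacks the tail that binds catenins. In the other direction the count was 0 of 37, against 3.91% of all genes. The lower count was 10 when vehicle replicate 2 was left out (27%, against 5.28% of all genes), 8 without CSA replicate 2 (21.6%, against 7.63%) and 5 without CSA replicate 1 (13.5%, against 2.88%). The higher count came to 3 without CSA replicate 2 (8.11%, against 7.61% of all genes) and to 1 without vehicle replicate 2 (2.7%, against 11.6%); vehicle replicate 1 is taken up below. The groups did not overlap, whatever the distance, for 11 genes that stood lower in CSA (29.7%, against 15.4% of all genes) and for 2 that stood higher (5.41%, against 10.9%). The set was drawn up with earlier results of these arrays known, so these shares describe it and do not test it.

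limma's moderated test, adjusted over all 19935 genes by Benjamini-Hochberg, called 0 of the 37 genes, as it called 0% of all genes, and the smallest limma adjusted p among the 37 was 0.999. Arrays were simulated with the within-group spread of all 19935 genes and with 200 changed genes. In them the test called 0% of changes of 1 log2 unit and 26% of changes of 2. The simulation took each gene's measured spread as its true spread and drew the arrays independently. These shares are therefore only a rough guide to the test on the real arrays. Of the 37 only Cdh13 differed by more than 1, so the lack of calls cannot show that differences of this size are absent. Before adjustment, 5 of the 37 genes (13.5%) had a limma p under 0.05, against 2.83% of all genes. That number came to 2 with CSA replicate 1 left out and 3 with vehicle replicate 1 left out (3.2% and 1.91% of all genes), and to 8 with CSA replicate 2 or vehicle replicate 2 left out (6.29% and 7.07% of all genes). With all arrays, all 5 stood lower in CSA, a direction and threshold that 1% of all genes met. An ordinary test without moderation also called 0 and gave 4 of the 37 at an unadjusted p under 0.05. Values after ± below are limma's moderated standard errors for 2 arrays against 2, and every limma adjusted p of a gene named below was at least 0.999. The replicates are separate biological samples per the series' design text. Their spread enters these errors together with a variance that limma's moderation borrows from all genes.

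Promoter windows show the letters upstream of 4 of these genes. Ptprf and Gja1 are shown because they stood lower on both CSA arrays, and Gjb2 and Gjb6 because they are neighbours of which 1 was high on vehicle replicate 1 alone. The sequences come from a RefSeq table of build GRCm38.p6 and cover the 250 bases before each start, 5′ to 3′ on the gene's strand. For the 37 genes, windows on the chromosome of the desmoglein and desmocollin cluster were left out. With that limit, 22 of the 37 genes had 29 windows. Capitals mark matches on either strand to 5 motifs, and no marked match overlaps another. The core of NFAT sites, the factors that calcineurin activates, was searched as GGAAA. Sites of AP-1, a factor of epidermal differentiation among others, were searched as TGANTCA. Sites of Grainyhead factors, which bind many epithelial junction genes, were searched as AACNGGTT. The Sp1 box of promoters rich in G and C was searched as GGGCGG. The TATA box, which lies just before the start of some genes, was searched as TATAAA.
Ptprf, chr4:118291398-118291647, minus strand: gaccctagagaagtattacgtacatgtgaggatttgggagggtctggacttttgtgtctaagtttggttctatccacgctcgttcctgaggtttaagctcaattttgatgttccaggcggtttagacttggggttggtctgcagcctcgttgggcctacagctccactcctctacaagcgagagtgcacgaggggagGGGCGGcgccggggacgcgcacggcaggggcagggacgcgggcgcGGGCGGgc
Gja1, chr10:56377050-56377299, plus strand: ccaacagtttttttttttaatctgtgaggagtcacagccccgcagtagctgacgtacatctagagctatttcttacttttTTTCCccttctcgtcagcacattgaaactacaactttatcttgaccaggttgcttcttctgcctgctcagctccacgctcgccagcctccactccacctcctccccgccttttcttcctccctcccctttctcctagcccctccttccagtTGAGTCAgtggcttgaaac
Gjb2, chr14:57104703-57104952, minus strand: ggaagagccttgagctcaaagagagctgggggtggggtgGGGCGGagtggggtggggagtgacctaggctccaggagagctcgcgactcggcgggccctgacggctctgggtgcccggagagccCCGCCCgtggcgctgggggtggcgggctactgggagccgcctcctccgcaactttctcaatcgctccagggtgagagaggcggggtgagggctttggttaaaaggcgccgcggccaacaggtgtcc
Gjb6, chr14:57133612-57133861, minus strand: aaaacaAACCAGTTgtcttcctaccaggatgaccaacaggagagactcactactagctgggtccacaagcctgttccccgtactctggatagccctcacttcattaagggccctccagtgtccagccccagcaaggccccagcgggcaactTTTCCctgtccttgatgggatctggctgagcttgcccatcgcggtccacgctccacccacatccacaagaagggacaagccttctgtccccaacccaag

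The Ptprf and Gjb2 windows held 2 Sp1 boxes each and none of the other motifs, while Gja1 held an AP-1 match 19 bases and an NFAT core match 170 bases before its start. Gjb6 held an NFAT core match 99 bases and a Grainyhead match 244 bases before its start. Over these 29 windows the NFAT core was present in 55.2%, against 55.6% of all 32851 windows in the table, which were not restricted by chromosome. AP-1 letters were present in 3 of the 29 windows (10.3%, against 6.75%) and Grainyhead letters in 2 (6.9%, against 1.79%). Sp1 boxes were present in 19 (65.5%, against 32.7%) and TATA boxes in 2 (6.9%, against 12.4%). G and C made up 59.2% of the printed window of Ptprf, 50% of Gja1, 69.2% of Gjb2 and 56.8% of Gjb6. The median over all windows was 52.4%, and the motif shares were not adjusted for this content. The 29 windows come from 22 genes, and these shares were not tested. A match is a run of letters and not a measured binding site.

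**Figure D1:**
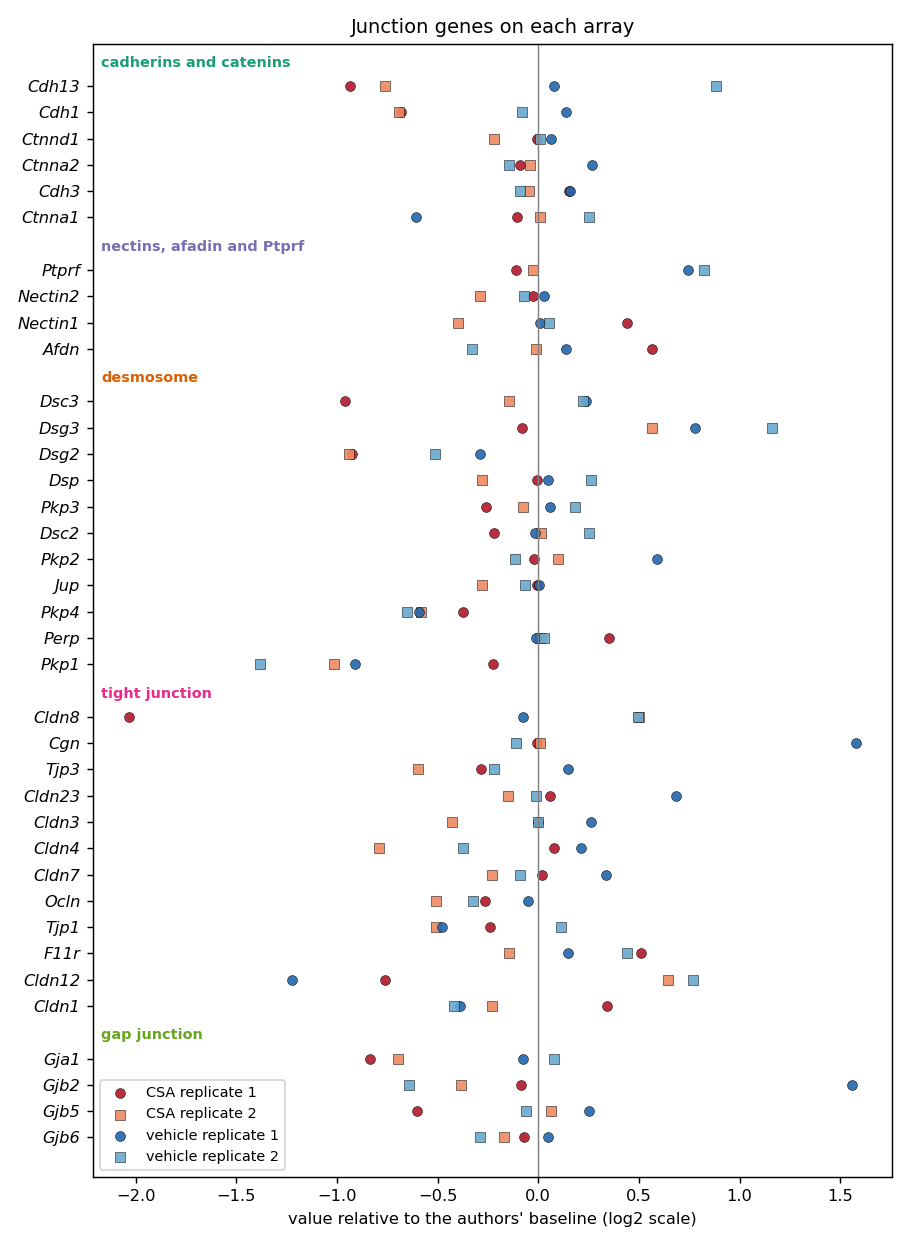
Value of each of the 37 junction genes on each of the 4 arrays, relative to the authors' baseline on the log2 scale, by junction type; red and orange points are CSA arrays and blue points vehicle arrays, circles replicate 1 and squares replicate 2. Both CSA points lie left of both vehicle points for Cdh1, Cdh13, Ptprf, Dsg3, Dsc3 and Gja1, and vehicle replicate 1 stands alone on the right for Cgn, Gjb2 and Cldn23.

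Among the cadherins, T-cadherin (Cdh13), a cadherin held in the membrane by a lipid anchor and lacking the tail that binds catenins, was farthest apart. It read -0.94 and -0.76 with CSA and 0.08 and 0.88 with vehicle, a difference of -1.33 ± 0.32 (limma unadjusted p = 0.0138). Both CSA arrays were low, and the vehicle arrays differed from each other by nearly as much as the lower of them did from CSA. E-cadherin (Cdh1), the main cadherin of epithelial adherens junctions, was -0.68 and -0.69 with CSA against 0.14 and -0.08 with vehicle. The CSA arrays were almost equal and both lay below vehicle, and the difference was -0.71 ± 0.17 (limma unadjusted p = 0.013). P-cadherin (Cdh3), whose gene lies next to Cdh1 with no protein-coding gene between them, read 0.15 and -0.04 with CSA and 0.16 and -0.09 with vehicle. Its groups overlapped throughout, with a difference of 0.02 ± 0.19 that was -0.08 without CSA replicate 1. Whether Cdh1 and Cdh3 differed from each other in their response was not tested.

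The catenins, which tie the cadherin tails to actin or hold cadherins at the surface, had overlapping groups or lay close to vehicle. Ctnnd1, the catenin that keeps cadherins from being taken up, read -0.01 and -0.22 with CSA and 0.07 and 0.01 with vehicle (difference -0.15 ± 0.17). Ctnna1, the alpha-catenin of epithelia, was -0.11 and 0.01 with CSA and -0.61 and 0.25 with vehicle, so that CSA lay between the vehicle arrays (0.13 ± 0.34, and -0.30 without vehicle replicate 1). Ctnna2, the alpha-catenin of neurons, was -0.09 and -0.04 with CSA and 0.27 and -0.15 with vehicle, again with CSA between them (-0.13 ± 0.21). The 6 cadherins and catenins had a median difference of -0.14, and that median was -0.26 without vehicle replicate 2.

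Ptprf, whose promoter window with its pair of Sp1 boxes is printed above, had the smallest limma unadjusted p of the 37 genes (0.00527). It encodes a receptor tyrosine phosphatase found at cell contacts, and its values were -0.11 and -0.03 with CSA and 0.74 and 0.82 with vehicle. The arrays of each group lay close together and the groups were well apart, with a difference of -0.85 ± 0.16. No other gene of this group had groups that parted. Nectin1, an immunoglobulin-like adhesion protein, read 0.44 and -0.40 with CSA and 0.01 and 0.05 with vehicle (-0.01 ± 0.33, and 0.02 with arrays centred on their medians). Nectin2 read -0.03 and -0.29 with CSA and 0.03 and -0.07 with vehicle (-0.14 ± 0.18). Afdn, which links nectins to actin, went the other way at 0.57 and -0.01 with CSA and 0.14 and -0.33 with vehicle. Its groups overlapped. The difference was 0.37 ± 0.30, which came to 0.61 with vehicle replicate 1 left out and 0.09 with CSA replicate 1 left out. The median of the 4 genes was -0.07, and it was 0.20 without CSA replicate 2.

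Desmosome genes had a median difference of -0.22, with 8 of 11 lower in CSA. The farthest apart were a desmocollin and a desmoglein. Dsc3, a desmocollin of basal keratinocytes, read -0.96 and -0.15 with CSA and 0.24 and 0.22 with vehicle (-0.78 ± 0.32). Dsg3, the desmoglein of basal layers that also holds the resting hair in its follicle, read -0.08 and 0.57 with CSA and 0.78 and 1.16 with vehicle (-0.73 ± 0.30). In both genes CSA replicate 1 was the lowest array by a wide margin and the groups did not overlap. Without CSA replicate 1 the difference was -0.37 for Dsc3 and -0.40 for Dsg3, under the 1.5-fold limit.

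The other desmosomal cadherins stood closer to vehicle. Dsg2 read -0.93 and -0.94 with CSA and -0.29 and -0.51 with vehicle, a difference of -0.53 ± 0.17 (limma unadjusted p = 0.035). Both CSA arrays were below both vehicle arrays, just short of the 1.5-fold limit of 0.585. Dsc2 read -0.22 and 0.02 with CSA and -0.02 and 0.25 with vehicle, with overlap (-0.22 ± 0.20). Dsc2 lies next to Dsc3 in the genome and Dsg2 next to Dsg3, within 1 cluster, so that each neighbour pair held 1 gene past the limit and 1 short of it.

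Desmoplakin, plakoglobin and Pkp3, which lie on the inner side of the membrane, stayed within the 1.5-fold limit. Dsp, desmoplakin, which anchors keratin filaments, read -0.01 and -0.28 with CSA and 0.05 and 0.26 with vehicle (-0.30 ± 0.19). Pkp3, a plakophilin, read -0.26 and -0.08 with CSA and 0.06 and 0.18 with vehicle (-0.29 ± 0.17). In both genes the CSA arrays lay below both vehicle arrays by less than the 1.5-fold limit. Jup, plakoglobin, which serves both adherens junctions and desmosomes, read -0.0046 and -0.28 with CSA and 0.0046 and -0.07 with vehicle. Its groups overlapped, and the difference was -0.11 ± 0.18 with all arrays and 0.03 without CSA replicate 2.

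Not all desmosome genes pointed the same way. Pkp1, the plakophilin of suprabasal cells, read -0.22 and -1.01 with CSA and -0.91 and -1.38 with vehicle, the largest positive difference of the 37 (0.53 ± 0.35). CSA replicate 1 alone was high, and the difference was 0.13 without it and 0.76 without vehicle replicate 1. Pkp4, a plakophilin relative also found at adherens junctions, read -0.37 and -0.58 with CSA and -0.59 and -0.65 with vehicle (0.14 ± 0.17). Its groups did not overlap, but the gap between them was far smaller than the spread within CSA. Perp, a membrane protein that desmosomes of stratified epithelia need, read 0.35 and 0.01 with CSA and -0.01 and 0.03 with vehicle (0.17 ± 0.19), with CSA replicate 1 alone above the rest. Pkp2 read -0.02 and 0.10 with CSA and 0.59 and -0.11 with vehicle (-0.20 ± 0.29), with vehicle replicate 1 alone above the rest, and differed by 0.15 without that array.

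**Figure D2:**
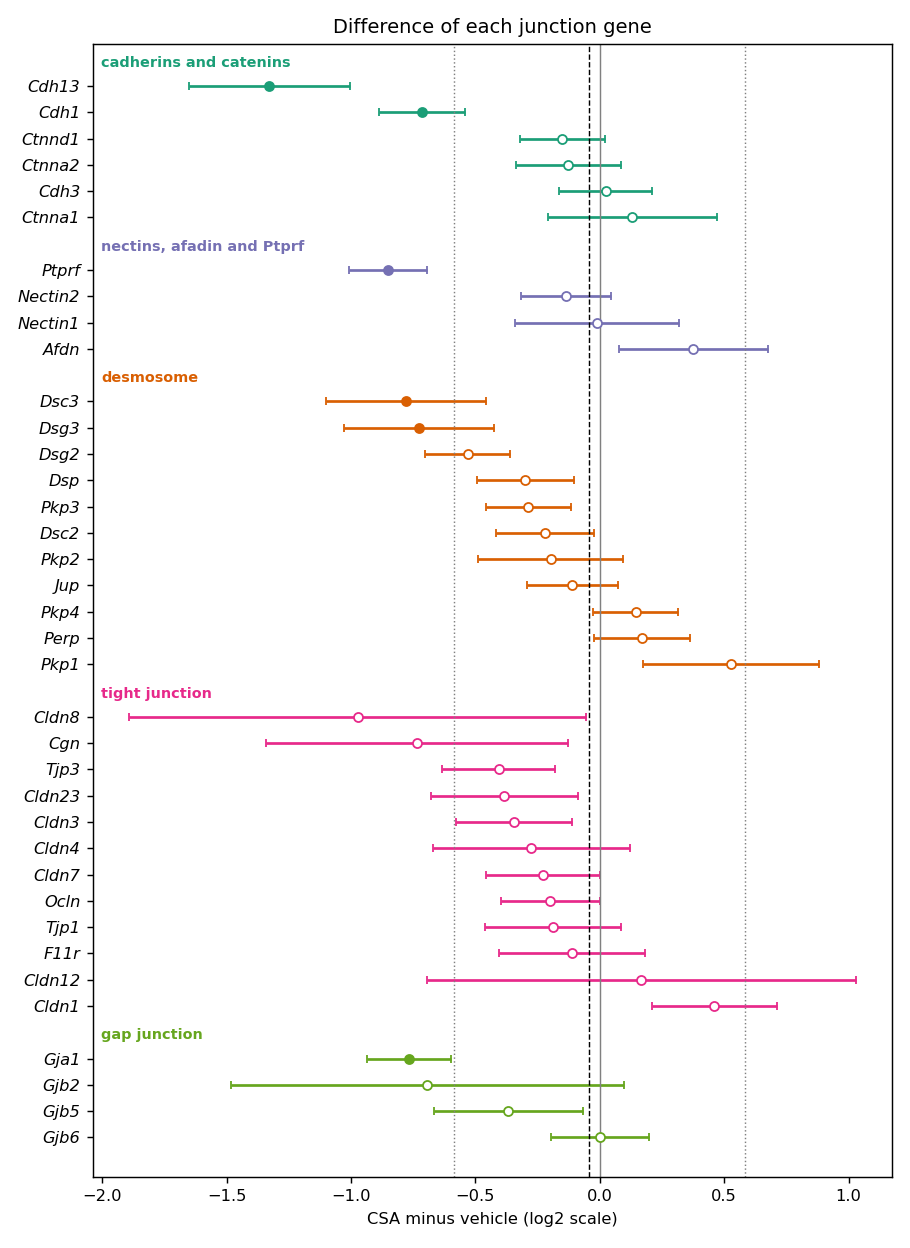
Difference between the CSA and vehicle means of each junction gene on the log2 scale, with limma's moderated standard error for 2 arrays against 2, by junction type; filled points are the 6 genes whose groups do not overlap and whose means are at least 1.5-fold apart, dotted lines mark the 1.5-fold limit of 0.585 and the dashed line the median of all genes (-0.04). The filled points all lie on the lower side and belong to 4 of the 5 junction types, with no tight junction gene among them.

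Tight junction genes stood lower in CSA for 10 of 12, with a median difference of -0.25, but 0 of the 12 were 1.5-fold apart without overlap. The median was -0.14 without vehicle replicate 1, -0.12 without CSA replicate 2 and -0.46 without vehicle replicate 2. Tjp3, a scaffold under the claudins, was the gene of the 12 whose groups parted on the lower side, at -0.29 and -0.60 with CSA and 0.15 and -0.22 with vehicle (-0.41 ± 0.23). Without vehicle replicate 1 its difference was -0.22. The related scaffold Tjp1 read -0.24 and -0.51 with CSA and -0.48 and 0.11 with vehicle (-0.19 ± 0.27), with overlap. Occludin (Ocln), a membrane protein of the seal, read -0.27 and -0.51 with CSA and -0.05 and -0.33 with vehicle (-0.20 ± 0.20). F11r, an adhesion molecule that helps to place tight junctions, read 0.51 and -0.15 with CSA and 0.15 and 0.44 with vehicle (-0.11 ± 0.29), with the CSA arrays on either side of vehicle.

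Among the claudins, which form the seal itself, the arrays of a group often lay far apart. Cldn1, the claudin without which the epidermal barrier fails, was the claudin that stood higher in CSA without overlap, at 0.34 and -0.23 with CSA and -0.39 and -0.42 with vehicle (0.46 ± 0.25). CSA replicate 1 was alone above the baseline, and the difference was 0.17 without it. Cldn8 read -2.03 and 0.50 with CSA and -0.08 and 0.50 with vehicle, so that its difference of -0.97 ± 0.92 came from CSA replicate 1, and it was 0.29 without that array. Cldn12 read -0.76 and 0.64 with CSA and -1.23 and 0.77 with vehicle. Both arrays numbered replicate 1 were low for this gene in both groups, and the treatment difference was 0.17 ± 0.86, ranging from -0.83 to 1.16 as each array was left out.

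Cldn3 and Cldn4, neighbours in the genome with no protein-coding gene between them, and Cldn7 were highest on vehicle replicate 1 and lowest on CSA replicate 2. Cldn3 read 0.00 and -0.43 with CSA and 0.26 and 0.00 with vehicle (-0.35 ± 0.23). Cldn4 read 0.08 and -0.79 with CSA and 0.21 and -0.37 with vehicle (-0.28 ± 0.40). Cldn7 read 0.02 and -0.23 with CSA and 0.34 and -0.09 with vehicle (-0.23 ± 0.23). In all 3 the groups overlapped or met at an equal value, and without vehicle replicate 1 the differences were -0.22, 0.02 and -0.01.

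Among the gap junction genes Gja1, the most widely expressed connexin gene, stood lower on both CSA arrays. It read -0.84 and -0.70 with CSA and -0.08 and 0.08 with vehicle, a difference of -0.77 ± 0.17 (limma unadjusted p = 0.0098). The groups were far apart for the spread within them. Gjb5 read -0.60 and 0.06 with CSA and 0.25 and -0.06 with vehicle (-0.37 ± 0.30), with overlap. Gjb6 read -0.07 and -0.17 with CSA and 0.05 and -0.29 with vehicle (0.00 ± 0.20), with CSA between the vehicle arrays. The median of the 4 genes was -0.53, and it was -0.02 without vehicle replicate 1.

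Vehicle replicate 1 held the highest of the 4 values for 19 of the 37 junction genes (51.4%), and it did so for 43.2% of all genes. For 3 of the 37 (8.11%, against 1.94% of all genes) it stood at least 1.5-fold above the next array. Cgn, cingulin, which links tight junctions to actin and myosin, read 1.58 there, -0.11 on vehicle replicate 2 and -0.01 and 0.01 with CSA. Gjb2, a connexin of differentiating keratinocytes, read 1.56 there, -0.64 on vehicle replicate 2 and -0.09 and -0.38 with CSA. Cldn23 read 0.69 there, -0.01 on vehicle replicate 2 and 0.06 and -0.15 with CSA. The 3 other arrays lay together for Cgn and Cldn23. The differences of Cgn (-0.74 ± 0.61), Gjb2 (-0.69 ± 0.79) and Cldn23 (-0.38 ± 0.30) were 0.11, 0.41 and -0.04 without vehicle replicate 1. These genes were picked for their high value on that array, so a move of this direction without it was given by the choice. Cgn and Gjb2 kept their place with arrays centred on their medians, and Cldn23 did not reach the 1.5-fold limit there. With vehicle replicate 2 left out, 8 of the 37 genes (21.6%) stood this far above both CSA arrays on vehicle replicate 1, against 2.8% of all genes.

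Vehicle replicate 1 also had the highest median in most of the marker lists, but not in those of bulge, basal epidermis and melanocytes. Among markers of differentiated epidermis it held the highest value for 13 of the 17 measured, and the list's median was 0.47 there, against -0.32 on vehicle replicate 2 and -0.32 and -0.16 with CSA. Krt1, a keratin of suprabasal cells, read 0.10 there, -2.15 on vehicle replicate 2 and -2.72 and -2.31 with CSA. Krt10, its partner, read 0.38 and -0.58 in vehicle against -1.35 and -0.90 with CSA. Krt2, a keratin of upper layers, was highest on CSA replicate 1 (0.22 and -0.04 with CSA, -0.01 and -0.09 with vehicle). The list's median difference was -0.58 with all arrays and 0.01 without vehicle replicate 1. Vehicle replicate 1 was also highest for 6 of 7 fibroblast, 5 of 6 endothelial and 6 of 7 immune markers. The same held for 4 of 6 sebaceous gland and 4 of 6 inner root sheath and hair shaft markers. It was highest for 1 of 11 bulge, 1 of 6 basal epidermal and 0 of 5 melanocyte markers, against 43.2% of all genes. The list medians on that array were 0.11 for fibroblast, 0.28 for endothelial, 0.14 for immune, 0.21 for sebaceous gland and 0.35 for inner root sheath and hair shaft markers. Its highest values thus appeared in lists of several cell types, but by unlike margins. Where it was highest among the differentiated epidermis markers, it led the next array by 0.003 to 2.33. In the fibroblast, endothelial, immune, sebaceous gland, and inner root sheath and hair shaft lists it led by 0.002 to 0.64. The part of any of these cell types in the values of Cgn, Gjb2 and Cldn23 was not tested. Over the 6 basal epidermal markers the array medians were -0.07 and -0.05 with CSA and 0.05 and 0.18 with vehicle, and over the 11 bulge markers 0.35 and 1.11 with CSA and 0.81 and 1.18 with vehicle. Of the 11 bulge markers 9 had a difference below 0. Their median difference was -0.40 with all arrays and -0.57 without vehicle replicate 1. The part of the bulge cells' share in the junction genes' values was not tested.

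**Figure D3:**
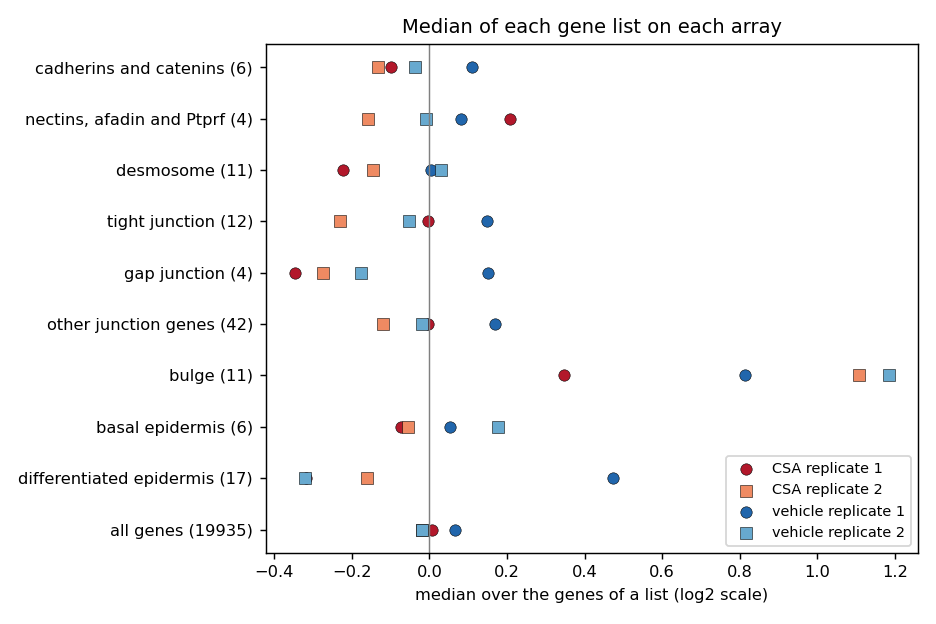
Median over the genes of each list on each of the 4 arrays, on the log2 scale relative to the authors' baseline, with the number of genes in brackets; colours and shapes mark groups and replicates. Vehicle replicate 1 is highest for the cadherin, tight junction, gap junction, other junction and differentiated epidermis lists, and also over all genes. The bulge list is lowest on CSA replicate 1.

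Leaving out vehicle replicate 1 changed the differences of the junction genes to unlike degrees. Without it 25 of the 37 (67.6%) stood lower in CSA, against 47.6% of all genes, and the median difference was -0.12, against 0.01 over all genes. The genes 1.5-fold apart without overlap and lower in CSA were then 7 (18.9%, against 4.54% of all genes): the 6 named above and Cldn12. Those higher in CSA were 2, Afdn and Pkp1 (5.41%, against 3.31%). A single vehicle array overlaps with CSA less often by itself, so these counts do not compare with those from all 4 arrays. Leaving out an array cannot bring overlap to groups that had none, so for the 6 genes only the 1.5-fold limit could fail. Cdh1, Cdh13, Ptprf and Gja1 stayed at least 1.5-fold lower whichever of the 4 arrays was left out. Their differences ran from -0.82 to -0.61 for Cdh1, -1.73 to -0.93 for Cdh13, -0.89 to -0.81 for Ptprf and -0.84 to -0.69 for Gja1. Dsg3 and Dsc3 fell short of the limit without CSA replicate 1, as did Dsg3 without vehicle replicate 2 (-0.54).

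**Figure D4:**
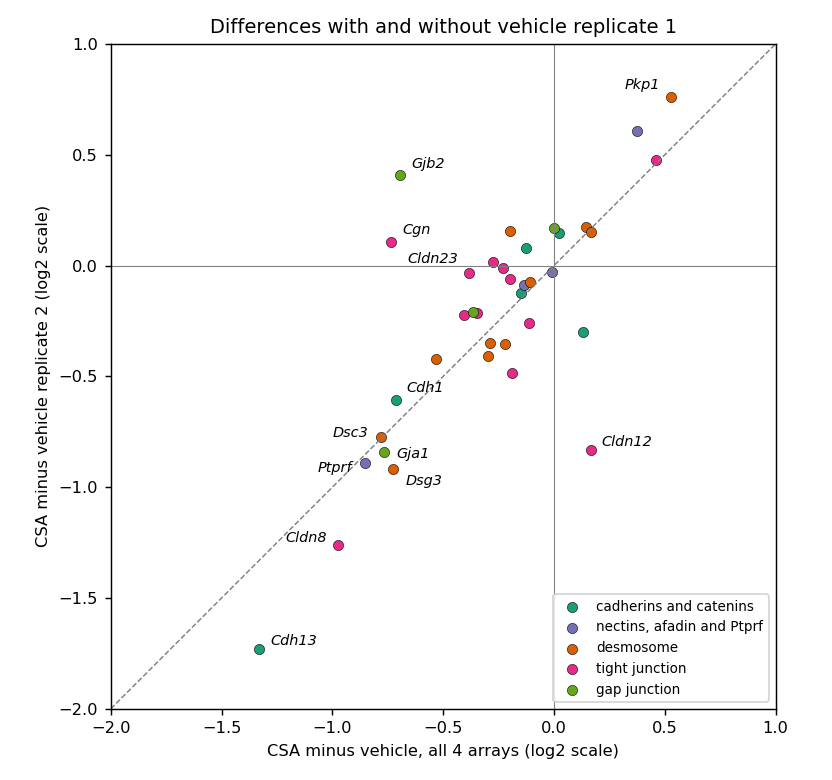
Difference of each junction gene with all 4 arrays (horizontal axis) against that with vehicle replicate 2 as the only vehicle array (vertical axis), both on the log2 scale, coloured by junction type; the dashed line marks equal values. Cdh1, Ptprf, Gja1, Dsc3 and Dsg3 lie near the line, while Gjb2 (-0.69 and 0.41) and Cgn (-0.74 and 0.11) cross to the other side of 0.

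Most junction genes outside the set of 37 also stood lower in CSA. Of 48 further cadherin, claudin, connexin and scaffold genes 42 were measured, and 33 of them (78.6%, against 58.9% of all genes) had a difference below 0, with a median of -0.15. limma called 0 of the 42 and gave 3 (7.14%) at an unadjusted p under 0.05, all lower in CSA, against 2.83% of all genes in either direction and 1% lower. Cdh11, a cadherin of mesenchymal cells, read -0.11 and 0.05 with CSA and 1.22 and 0.86 with vehicle, a difference of -1.07 ± 0.21 (limma unadjusted p = 0.00593). Cldn22 read -0.23 and -0.13 with CSA and 0.61 and 0.33 with vehicle (-0.65 ± 0.19). Gjc1, a connexin gene, read -0.23 and -0.31 with CSA and 0.21 and 0.31 with vehicle (-0.53 ± 0.16). In these 3 both CSA arrays lay below both vehicle arrays. The median of the 7 fibroblast markers, set beside Cdh11, was 0.03 and -0.13 with CSA and 0.11 and -0.04 with vehicle, and their part in its difference was not tested.

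The next genes of this list by the size of limma's statistic went both ways. Lsr, which builds the junctions where 3 cells meet, read -0.47 and -0.29 with CSA and 0.36 and -0.09 with vehicle (-0.52 ± 0.23). Cgnl1, a relative of cingulin, read 0.25 and 1.09 with CSA and 1.08 and 1.78 with vehicle (-0.76 ± 0.41), with the groups just overlapping. Marveld2, another protein of those junctions, stood higher in CSA at -0.11 and -0.75 against -0.95 and -0.98 in vehicle (0.54 ± 0.27). Vehicle replicate 1 was highest for 26 of the 42 genes (61.9%, against 43.2% of all genes), and the list's median difference was -0.03 without it. Dsg1b and Nectin3, named after their values were seen, stood at least 1.5-fold above the next array there (0.66 and 1.05). Dsg1b, a desmoglein of suprabasal layers, has close copies in the genome that its row may not tell apart.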

How the data were processed

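RNA of 4 arrays, 2 CSA and 2 vehicle, was read from the deposited series matrix, whose values the authors centred row by row on a log scale, read here as log2. How they chose the baseline, corrected for background and normalized the arrays is not stated in the labels, and per the submitters' processing notes the build was mm8. The baseline was not the middle of these 4 arrays in every row, since Cd34 stood above it on all 4. For 10 of the 37 junction genes 2 arrays held equal and opposite values (within 2e-06). Signal over background was not analysed here, and having 4 arrays limits the precision.

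Of 28815 rows, 21780 named 1 gene, 1605 several, and 5430 were not listed in the annotation. Where several rows named a gene, the one with the highest mean stood for it. Differences over all 19935 genes were tested in R 4.3.3 by limma 3.58.1 (lmFit and eBayes without a trend, two-sided, Benjamini-Hochberg, threshold 0.05), with no filter and no block. The functions were tested on simulated data. The 37 genes, the gene lists, the tests and the alternatives were chosen with earlier results of these data known. All 37 genes are named; of the other junction genes those that pass and the 6 with the largest absolute moderated t, and of marker lists up to 3 genes each in list order. The alternatives were quantile normalization, arrays centred on their medians, other rules for genes with several rows, a filter at the 25th percentile of the mean, eBayes with a trend, no moderation, a replicate block and leaving out each array.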

Additional observations from a re-analysis of the deposited data

How the results depend on the processing

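The count of genes called stayed at 0 under all 12 alternatives, over all genes and among the 37. With the replicate block, which pairs arrays only by number, the adjusted calls stayed at 0 (limma), 914 genes in place of 565 had an unadjusted p under 0.05 and 6 in place of 5 of the 37; the difference between replicates 1 and 2 correlated at 0.236 across genes between the groups, which 2 pairs cannot settle as pairing. The filter on the mean left 14951 genes and 18 of the 37, since it removes genes that lie below their baseline, Cdh1, Cdh13, Dsc3 and Gja1 among them; 1 of the 37 then had an unadjusted p under 0.05, 2 stood 1.5-fold lower without overlap (Ptprf and Dsg3) and 9 were highest on vehicle replicate 1.

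Leaving out each array gave, over all genes, 381 to 1410 genes at an unadjusted p under 0.05, and among the 37 it gave 2 to 8, reaching 8 when either array numbered replicate 2 was left out. It gave 5 to 10 genes 1.5-fold lower without overlap (10 without vehicle replicate 2), 0 to 3 higher, and 3 to 8 highest on vehicle replicate 1 by 1.5-fold. Median differences ranged from -0.34 to -0.12 for all 37, -0.26 to -0.10 for cadherins and catenins, -0.35 to 0.20 for nectins, afadin and Ptprf (turned without CSA replicate 2), -0.35 to -0.19 for the desmosome, -0.46 to -0.12 for tight junctions, -0.62 to -0.0195 for gap junctions and -0.25 to -0.0279 for the other junction genes. The direction of 15 of the 37 turned under at least 1 alternative. These were Nectin1 with arrays centred on their medians (0.0163), and, as each array was left out, Cdh3 (-0.10 to 0.15), Ctnna1 (-0.30 to 0.56), Ctnna2 (-0.34 to 0.0812), Nectin1 (-0.43 to 0.41), Jup (-0.25 to 0.0265), Pkp2 (-0.55 to 0.15), Perp (-0.0006 to 0.34), Cldn4 (-0.71 to 0.16), Cldn8 (-2.24 to 0.29), Cldn12 (-0.83 to 1.16), Tjp1 (-0.49 to 0.11), F11r (-0.44 to 0.22), Cgn (-1.58 to 0.11), Gjb2 (-1.79 to 0.41) and Gjb6 (-0.17 to 0.17). The cause of these turns was not tested. Quantile normalization moved the median difference of all genes by 0.03 and turned no direction among the 37.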
